A study of Mus musculus with 7 samples.

Results

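The messenger RNA of 42 lysosomal hydrolases and their activators was examined in the retinal pigment epithelium (RPE) of aged mice that lack LC3b. The genes were taken from a list of names and comprise 9 cysteine cathepsins, 4 other proteases, 13 glycosidases, 5 sulfatases, 6 lipid hydrolases, 2 activator proteins, and 2 acid phosphatases with 1 nuclease. No measured value was a criterion of that choice, but earlier results of these data were known when it was made. All 42 were found among the 52740 Ensembl identifiers and among the 16990 genes with enough counts to be tested. RPE was taken from 4 WT mice (females F1, F2 and F3 and male M1) and from 3 LC3b-/- mice (females F1 and F3 and male M), each 24 months old by its label, and every mouse gave 1 library. Values of single libraries are listed in the order F1, F2, F3, M1 for WT and F1, F3, M for LC3b-/-. The LC3b-/- mice carry the *Map1lc3b* tm1Mrab allele in every cell, on a mixed B6;129P2 strain background, and the WT mice were C57BL6/J. Strain background and genotype therefore cannot be told apart. Neither can the number before the sex letter in the mouse names, which no WT mouse shared with an LC3b-/- mouse. The meaning of that number is not given. The RPE had been released as sheets with hyaluronidase and trypsin from eyecups, with no sorting of cells.

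Lysosomal hydrolases are acid-active enzymes that are made in the endoplasmic reticulum, tagged with mannose 6-phosphate in the Golgi and carried to lysosomes, where they take apart proteins, glycans, sulfated glycosaminoglycans, lipids and nucleic acids. Saposins, cut from the precursor encoded by *Psap*, and the GM2 activator, encoded by *Gm2a*, lift lipids towards the enzymes that cleave them. RPE cells ingest shed photoreceptor outer segment tips every day, and the lysosomes that fuse with these phagosomes supply the enzymes for their digestion. LC3b is attached to phagosomes in LC3-associated phagocytosis and helps them mature.

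The libraries hold 24495952 to 35616134 counts. The targeted gene had a mean of 115 CPM in WT and 7.28 CPM in LC3b-/-, which fits the labels of all 7 libraries. Levels are given as CPM, counts scaled to a common library total, here with TMM factors. The summed level of 17 RPE markers was 35112 to 53996 CPM in WT and 16608 to 32512 CPM in LC3b-/-, so the labelled cell type was present in every library, and the groups did not overlap. The 10 markers of ocular surface epithelium summed to between 9.77 and 2427 CPM in WT and to between 3301 and 22678 CPM in LC3b-/-. The 12 markers of photoreceptors summed to between 276 and 21674 CPM in WT and to between 102 and 7420 CPM in LC3b-/-. In whole RPE preparations fewer cells of a type and less RNA per cell cannot be told apart.

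Counts of the 42 genes made up 1.11% to 1.61% of a library, and the lowest count of any of them in any library was 172. To compare levels between genes, CPM were divided by the length of the canonical transcript. Cathepsin D (*Ctsd*), the main aspartic protease of lysosomes, was highest in WT RPE at 2067 ± 424 CPM per kb (SD, n = 4). The saposin precursor *Psap* followed at 1769 ± 393 CPM per kb. The SDs between mice overlapped, but within each WT library *Ctsd* was higher per kb than *Psap*. Cathepsin B (*Ctsb*) came next at 235 ± 19.8 CPM per kb. Below these 3 lay acid sphingomyelinase (*Smpd1*) at 93.5 ± 13.8, the alpha subunit of hexosaminidase (*Hexa*) at 88.3 ± 4.41, and acid alpha-glucosidase (*Gaa*) at 73.9 ± 8.27 CPM per kb, followed by cathepsin S (*Ctss*) at 67.4 ± 21.6 CPM per kb. *Smpd1* and *Hexa* did not differ beyond their SDs, nor did *Gaa* and *Ctss*, whereas the SDs of *Hexa* and *Gaa* did not reach each other. *Acp5* (3.22 ± 0.459 CPM per kb) and *Galns* (3.03 ± 0.372 CPM per kb) were lowest in WT. *Ctsd*, *Psap* and *Ctsb* together held 71.6% to 77.3% of the CPM of all 42 genes in each library, without scaling by length. The order depended in part on the length used: with coding length in place of transcript length *Ctsd*, *Psap* and *Ctsb* stayed the first 3, and *Ctsl* and *Gm2a* took ranks 4 and 5. Between WT and LC3b-/- the rank by CPM per kb differed by at most 3 places for 35 of the 42 genes. *Ctsh* stood at rank 20 in WT and 8 in LC3b-/-, and *Ctsk* at 33 and 25.

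**Figure D1:**
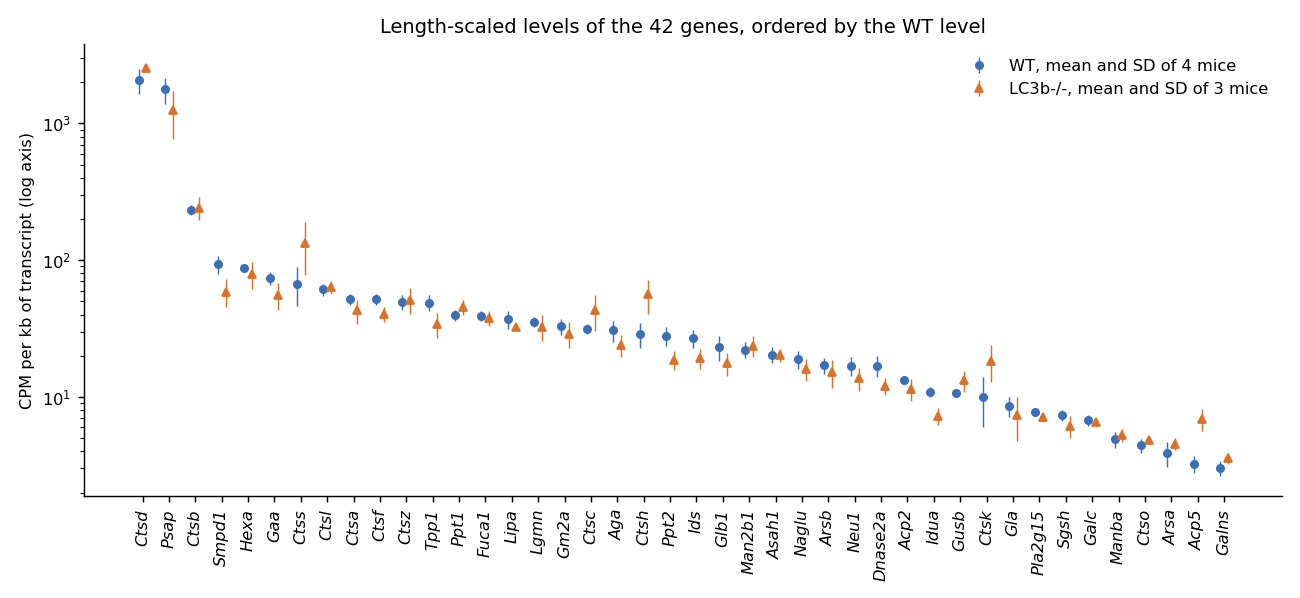
Mean CPM per kb of canonical transcript on a log axis for the 42 genes, ordered by the WT level, with the SD of 4 WT mice (blue circles) and 3 LC3b-/- mice (orange triangles). *Ctsd* and *Psap* lie at 2067 and 1769 CPM per kb, *Ctsb* at 235, and all other WT means below 94.

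Many lysosomal genes are known to carry a promoter element that the basic helix-loop-helix factors TFEB, TFE3 and MITF bind. Its core CACGTG reads the same on both strands. The core was searched in the RefSeq promoter windows (250 bases before to 50 bases after each gene's start, GRCm38.p6), and all 46 windows of the genes described here were placed on GRCm39 by matching their letters. A window was held for 37 of the 42 genes, all but *Aga*, *Asah1*, *Ctsb*, *Ctsh* and *Galns*. The core lay in a window of 11 of the 37 genes (29.7%), against 1335 of the 12134 tested genes with a window (11.0%). The longer forms TCACGTG or CACGTGA, which contain the core, lay in 9 of the 37 (24.3%), against 6.46% of all tested genes with a window. The sites follow, 5′ to 3′ on the gene's strand with the core in capitals, because they are a sequence feature that several of these genes share.
*Ctsa*, chr2:164675669-164675715 (+): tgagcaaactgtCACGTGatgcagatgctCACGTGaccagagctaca
*Ctsd*, chr7:141941645-141941674 (-): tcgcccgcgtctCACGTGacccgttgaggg
*Glb1*, chr9:114230086-114230115 (+): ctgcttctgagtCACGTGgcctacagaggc
*Naglu*, chr11:100960835-100960864 (+): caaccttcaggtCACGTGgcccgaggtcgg
*Gaa*, chr11:119158637-119158666 (+): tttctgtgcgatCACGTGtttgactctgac
*Sgsh*, chr11:119246348-119246377 (-): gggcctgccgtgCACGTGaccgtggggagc
*Lgmn*, chr12:102405383-102405412 (-): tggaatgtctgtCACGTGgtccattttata
*Arsa*, chr15:89361626-89361655 (-): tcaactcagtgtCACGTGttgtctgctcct
*Gla*, chrX:133501964-133501993 (-): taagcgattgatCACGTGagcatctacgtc
*Gla*, chrX:133501931-133501960 (-): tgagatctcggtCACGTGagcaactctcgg
*Ctsl*, chr13:64518553-64518582 (-): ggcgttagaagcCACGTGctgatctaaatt
*Ctsf*, chr19:4905102-4905131 (+): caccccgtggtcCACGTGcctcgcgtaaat
The core of *Ctsl* and *Ctsf* lacks the flanking letters of the longer forms. In *Ctsa* the core occurs on either side of the annotated start, with first letters at positions -12 and 5, and *Ctsd* holds a further core near the far edge of its window. These are matches of letters in a window and were not measured as bound sites.

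Comparing LC3b-/- with WT RPE, 0 of the 42 genes were differentially expressed with edgeR's quasi-likelihood test (fold change of 1.5 or more, adjusted p under 0.05), when 40 of all genes tested were (0.235%). Before adjustment 11 of the 42 had a p under 0.05. *Acp5*, *Ctss*, *Ctsh* and *Ctsk* were the 4 with higher values in LC3b-/- (9.52%, against 13.5% of all genes tested), and *Smpd1*, *Idua*, *Ppt2*, *Tpp1*, *Ids*, *Dnase2a* and *Ctsf* the 7 with lower values (16.7%, against 10.6% of all genes tested). Every LC3b-/- library lay above every WT library for 4 genes (9.52%, all genes 12.0%) and below every WT library for 6 genes (14.3%, all genes 10.3%). The share with lower values depended on the fit. With sex as a covariate 13 genes (31.0%, against 13.9% of all genes tested) and in females only 11 genes (26.2%, against 10.4%) had lower values at an unadjusted p under 0.05, and in both fits 3 genes (7.14%, against 14.1% and 11.2%) had higher ones. With library size alone as the scaling 6 genes had higher (14.3%, against 15.3%) and 6 lower values (14.3%, against 7.65%). DESeq2's Wald test called 5 of the 42 (11.9%, against 9.85% of the genes for which it gave an adjusted p), namely *Acp5* and *Ctsh* with higher and *Idua*, *Smpd1* and *Ppt2* with lower values. The median log2 fold change of the 42 genes was -0.15, with 26 of them below 0. The median of all 16990 genes tested was 0.01, with 8291 of them below 0. In the same edgeR fit 15 of the 17 RPE markers had a lower mean in LC3b-/-, with a median log2 fold change of -0.74. At an unadjusted p under 0.05, 10 of them were lower (58.8%, against 10.6% of all genes tested). All 10 markers of ocular surface epithelium had a higher mean, 7 of them at that p (70.0%, against 13.5%). The part of cell content in the values of the 42 genes was not tested.

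**Figure D2:**
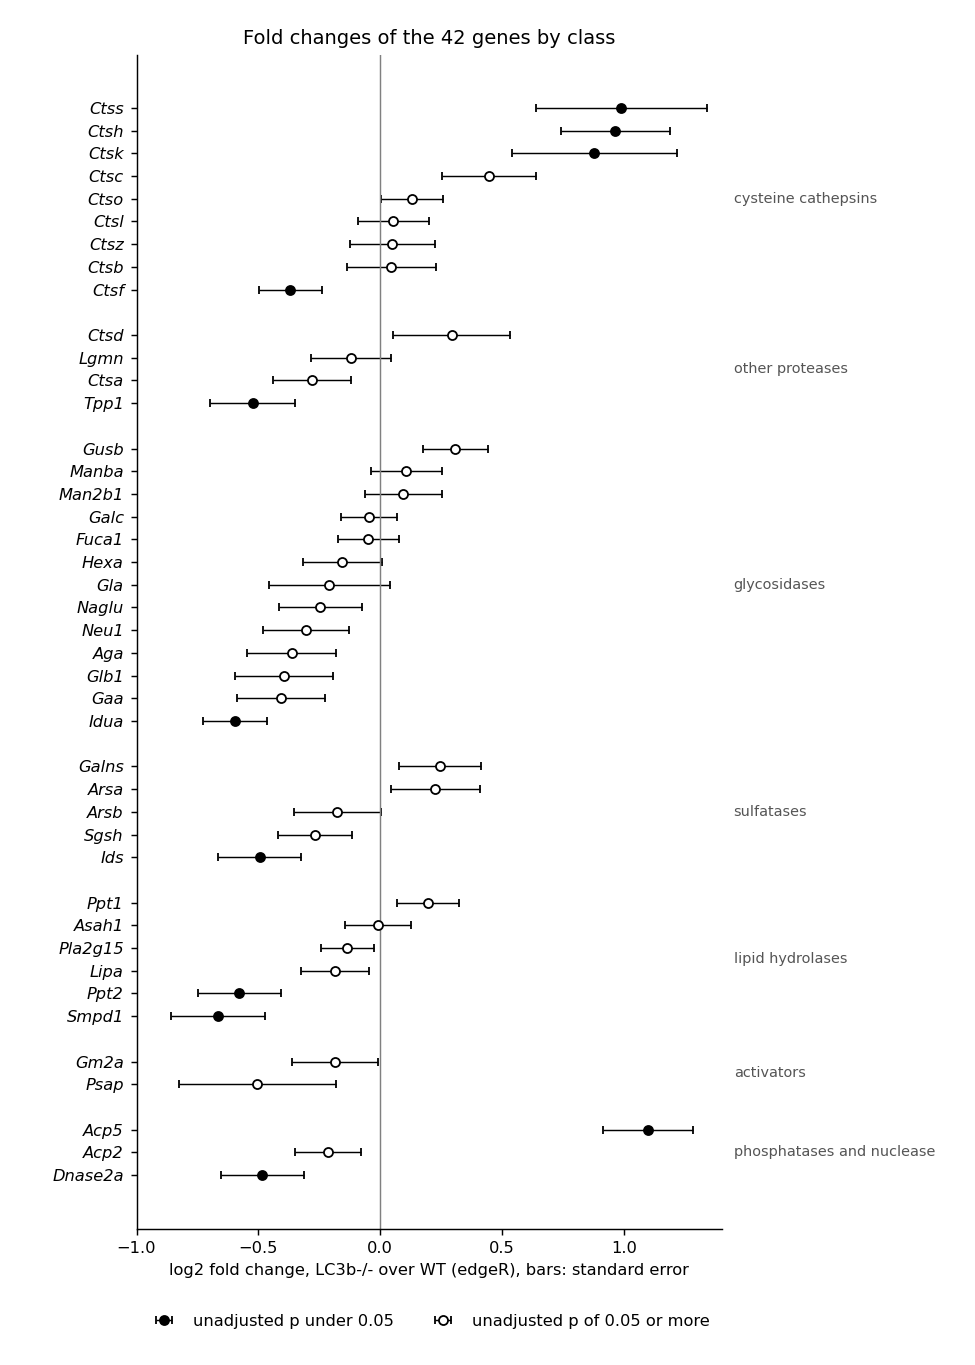
Log2 fold change of LC3b-/- over WT (edgeR) with its standard error for the 42 genes in 7 classes, with an unadjusted p under 0.05 as filled circles and the others as open circles. *Acp5* (1.10), *Ctss* (0.99), *Ctsh* (0.96) and *Ctsk* (0.88) lie farthest to the right, and *Smpd1* (-0.67) and *Idua* (-0.60) farthest to the left.

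The cysteine cathepsins were the class with most values above 0, 8 of 9 genes having a higher mean in LC3b-/- and *Ctsf* a lower one. Of all 16990 genes tested 8699 lay above 0. Among the 8 the log2 fold changes of *Ctsb*, *Ctsl* and *Ctsz* were smaller than their standard errors. *Ctsh* (chromosome 9, 89936205 to 89958148, GRCm39), an aminopeptidase, had 58.2, 52.4, 38.6 and 39.7 CPM in WT and 121, 82.5 and 72.8 CPM in LC3b-/-. All 3 LC3b-/- values lay above all WT values, and LC3b-/- F1 was highest. The log2 fold change was 0.96 (standard error 0.224, edgeR adjusted p = 0.0951). Cathepsin S (*Ctss*), the elastin- and invariant chain-cleaving protease of antigen-presenting cells, had 125, 99.8, 54.3 and 89.0 CPM in WT and 109, 178 and 261 CPM in LC3b-/-. LC3b-/- F1 lay within the WT range and LC3b-/- M was highest. Its log2 fold change was 0.99 (standard error 0.351, edgeR adjusted p = 0.157). *Ctss* lies on chromosome 3 (95433963 to 95463717), 17.2 kb from *Ctsk* (95406178 to 95416732), which encodes the collagen-degrading cathepsin K of osteoclasts. *Ctsk* had 26.9, 23.9, 12.2 and 12.9 CPM in WT and 27.8, 30.0 and 46.9 CPM in LC3b-/-. The groups did not overlap, but LC3b-/- F1 lay only just above WT F1. Its log2 fold change was 0.88 (standard error 0.339, edgeR adjusted p = 0.177). *Ctsf* (chromosome 19, 4905118 to 4915986), whose product trims the invariant chain in macrophages, had 93.4, 112, 113 and 101 CPM in WT and 70.5, 82.6 and 90.4 CPM in LC3b-/-, a log2 fold change of -0.37 (standard error 0.129, edgeR adjusted p = 0.153). Its groups did not overlap, with LC3b-/- M close below WT F1. *Ctsf* is the gene among the 10 with a promoter window and an unadjusted p under 0.05 whose window holds the core CACGTG, and none of the 10 holds a longer form.

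The abundant *Ctsb* (chromosome 14, 63358384 to 63383372), an endopeptidase and peptidyl-dipeptidase, had 1086, 1036, 1104 and 1255 CPM in WT and 995, 1068 and 1406 CPM in LC3b-/-. Low and high libraries occurred in both groups, and the log2 fold change of 0.05 was well below its standard error of 0.183 (edgeR adjusted p = 0.903). The 3' end of *Ctsb* overlaps *Fdft1* on the other strand, and the strand setting of the counting is not given in the sources used here. *Ctsc*, which activates serine proteases of granules, had 77.4 to 95.3 CPM in WT and 87.7 to 153 CPM in LC3b-/-, with the highest value in LC3b-/- F1 as for *Ctsh* (log2 fold change 0.45, standard error 0.194, edgeR adjusted p = 0.211). The groups overlapped for *Ctsl*, *Ctso* and *Ctsz*, whose log2 fold changes were 0.05, 0.13 and 0.05.

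Of the other proteases, *Ctsd* (chromosome 7, 141929646 to 141941775) had 3591, 3683, 4899.8 and 5413 CPM in WT and 5556, 4997 and 5607 CPM in LC3b-/-. WT M1 reached into the LC3b-/- range, while WT F1 and F2 lay well below it. The log2 fold change was 0.29 (standard error 0.241, edgeR adjusted p = 0.483). *Gm49369*, which shares 671 coding bases with *Ctsd* at the same locus, had a mean of 23.4 CPM in WT and of 30.3 CPM in LC3b-/-, and adding its counts to *Ctsd* left the call as it was. Tripeptidyl peptidase 1 (*Tpp1*; chromosome 7, 105394018 to 105401481), the enzyme missing in late infantile neuronal ceroid lipofuscinosis, had 162, 149, 186 and 199 CPM in WT and 104, 110.1 and 149 CPM in LC3b-/-. The female LC3b-/- libraries lay far below WT, and LC3b-/- M lay level with the lowest WT library, F2. Its log2 fold change was -0.52 (standard error 0.173, edgeR adjusted p = 0.141). Cathepsin A (*Ctsa*), the serine carboxypeptidase that protects beta-galactosidase and neuraminidase, and legumain (*Lgmn*), an asparaginyl endopeptidase, had log2 fold changes of -0.28 and -0.12 with overlapping groups.

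Both activators had a lower mean in LC3b-/-. *Psap* (chromosome 10, 60113431 to 60138380) had 4022, 3839.9, 4767 and 6134 CPM in WT and 2396, 2750.2 and 4768 CPM in LC3b-/-. Both female LC3b-/- libraries lay below all WT libraries, and LC3b-/- M lay level with WT F3. With a log2 fold change of -0.51 and a standard error of 0.322 the difference was not significant (edgeR adjusted p = 0.368). Since *Psap* and *Ctsd* were of like abundance in WT, their ratio within a library, examined after these values were seen and given with no test, was 1.12, 1.04, 0.973 and 1.13 in WT. In LC3b-/- it was 0.431, 0.550 and 0.850, so that all 3 LC3b-/- libraries held fewer *Psap* than *Ctsd* counts and lay below the 4 WT libraries. *Gm2a* had 120.4 to 164 CPM in WT and 102 to 151 CPM in LC3b-/- (log2 fold change -0.19, standard error 0.176, edgeR adjusted p = 0.546).

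**Figure D3:**
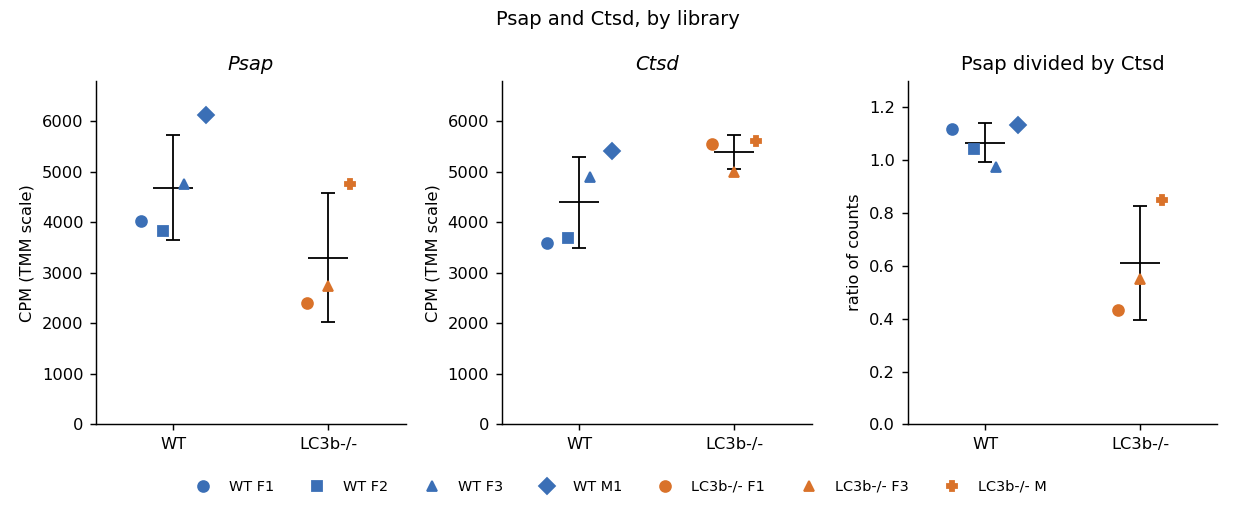
CPM of *Psap* and of *Ctsd* and the ratio of their counts in each library, with the mean and SD of 4 WT (blue) and 3 LC3b-/- mice (orange). The ratio is between 0.973 and 1.13 in WT and between 0.431 and 0.850 in LC3b-/-.

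Among the lipid hydrolases *Smpd1* (chromosome 7, 105203564 to 105207597), which splits sphingomyelin to ceramide, had 197, 197, 251 and 258 CPM in WT and 117, 131 and 179 CPM in LC3b-/-. The groups did not overlap, and LC3b-/- M lay closest to WT. The log2 fold change was -0.67 (standard error 0.193, edgeR adjusted p = 0.115). The thioesterase gene *Ppt2* ( chromosome 17, 34835635 to 34864382) had 44.6, 54.4, 66.2 and 54.4 CPM in WT and 31.4, 35.5 and 43.3 CPM in LC3b-/-, a log2 fold change of -0.58 (standard error 0.170, edgeR adjusted p = 0.118). The groups did not overlap, with LC3b-/- M just below WT F1. The lncRNA *Gm20460* shares 765 bases of *Ppt2* coding sequence and had at most 6 counts in a library. *Ppt1*, whose product removes palmitate from proteins, had 87.3 to 109 CPM in WT and 105 to 129 CPM in LC3b-/- (log2 fold change of 0.20, edgeR adjusted p = 0.379). Lysosomal acid lipase (*Lipa*), lysosomal phospholipase A2 (*Pla2g15*) and acid ceramidase (*Asah1*) had log2 fold changes of -0.19, -0.13 and -0.01 with overlapping groups.

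Of the 13 glycosidases 10 had a lower mean in LC3b-/-. Alpha-L-iduronidase (*Idua*; chromosome 5, 108808197 to 108834523), which removes iduronic acid from dermatan and heparan sulfate, had 33.9, 35.0, 38.9 and 40.0 CPM in WT and 22.2, 22.7 and 28.3 CPM in LC3b-/-. The WT values lay close together, and all 3 LC3b-/- values lay below them. The log2 fold change was -0.60 (standard error 0.132, edgeR adjusted p = 0.0919). *Gaa* (chromosome 11, 119158708 to 119176525), which degrades glycogen, had 254, 234, 298 and 289 CPM in WT and 179.9, 173 and 255 CPM in LC3b-/-. Only LC3b-/- M lay within the WT range, and the log2 fold change was -0.41 (standard error 0.181, edgeR adjusted p = 0.221). *Hexa* (chromosome 9, 59446818 to 59474021), which acts on GM2 ganglioside with the GM2 activator, had 172, 172, 172 and 189.6 CPM in WT and 144, 132 and 199.7 CPM in LC3b-/-. Its LC3b-/- libraries lay on both sides of the narrow WT range, with a log2 fold change of -0.16 (standard error 0.163, edgeR adjusted p = 0.588). Beta-glucuronidase (*Gusb*) was the one glycosidase with all LC3b-/- values (31.2, 32.9 and 42.9 CPM) above all WT values (28.1 to 29.9 CPM), and its log2 fold change was 0.31 (standard error 0.134, edgeR adjusted p = 0.212). The log2 fold changes of the glycoprotein- and glycolipid-cleaving enzymes encoded by *Glb1*, *Aga*, *Neu1*, *Gla*, *Fuca1* and *Galc* were -0.39, -0.36, -0.30, -0.21, -0.05 and -0.05, that of *Naglu*, which acts on heparan sulfate, was -0.25, and those of the mannosidases *Manba* and *Man2b1* were 0.11 and 0.09. None of these 9 had an unadjusted p under 0.05.

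The sulfatase with the largest difference was iduronate-2-sulfatase (*Ids*; chromosome X, 69386675 to 69408718), which precedes *Idua* in the breakdown of dermatan and heparan sulfate. *Ids* had 129.7, 112, 137 and 161 CPM in WT and 92.6, 81.4 and 114 CPM in LC3b-/-. LC3b-/- M lay just above WT F2, so the groups overlapped, while the females of LC3b-/- lay below all WT libraries. The log2 fold change was -0.49 (standard error 0.170, edgeR adjusted p = 0.150). *Sgsh* and *Arsb*, which act on heparan sulfate and dermatan sulfate, had log2 fold changes of -0.27 and -0.18, and *Arsa*, the sulfatide sulfatase, one of 0.23. *Galns*, the sulfatase of keratan sulfate, lies 0.979 Mb from *Map1lc3b* on chromosome 8, the shortest distance of the 6 of these genes on that chromosome. It had 6.88 to 9.16 CPM in WT and 8.70 to 10.4 CPM in LC3b-/- (log2 fold change of 0.25, edgeR adjusted p = 0.406).

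The gene with the smallest adjusted p of the 42 was *Acp5* (chromosome 9, 22038023 to 22049355), tartrate-resistant acid phosphatase, a marker of osteoclasts and of some macrophages. *Acp5* had 7.02, 8.49, 6.44 and 8.65 CPM in WT and 14.7, 19.8 and 14.7 CPM in LC3b-/-. The lowest LC3b-/- value was well above the highest WT value, and the ratio of the means was 2.14. Its log2 fold change was 1.10 (standard error 0.185, edgeR adjusted p = 0.0758). Lysosomal acid phosphatase (*Acp2*) had 60.8 to 66.7 CPM in WT and 44.9 to 64.8 CPM in LC3b-/- (log2 fold change of -0.21, edgeR adjusted p = 0.367). Deoxyribonuclease 2 (*Dnase2a*; chromosome 8, 85635189 to 85649544), which digests ingested DNA, had 27.6, 31.6, 31.3 and 41.1 CPM in WT and 22.9, 20.5 and 27.1 CPM in LC3b-/-. The groups just did not overlap, and the log2 fold change was -0.48 (standard error 0.172, edgeR adjusted p = 0.157).

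**Figure D4:**
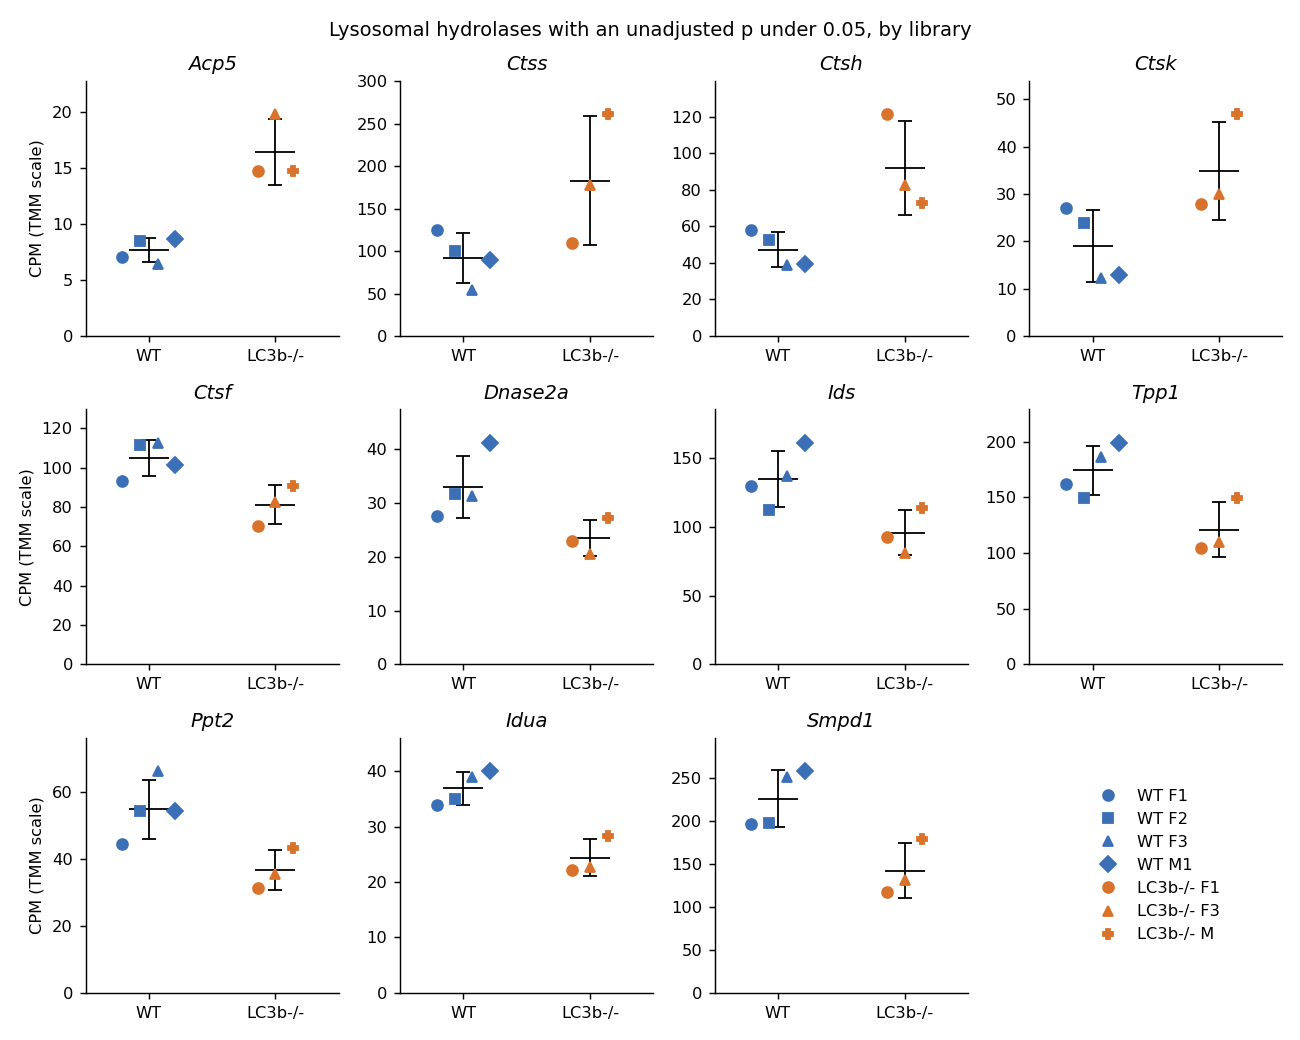
CPM in each library of the 11 genes with an unadjusted p under 0.05, with the mean and SD of 4 WT (blue) and 3 LC3b-/- mice (orange), ordered by fold change. *Acp5*, *Ctsh* and *Ctsk* have all LC3b-/- values above WT and *Ctss* does not, while LC3b-/- M is the highest orange point in *Ctsk* and *Ctss* and in all 7 genes with lower means.

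The 3 LC3b-/- libraries differed from each other in these genes. LC3b-/- M held the highest LC3b-/- value for 36 of the 42 genes. In LC3b-/- F1 and F3, 29 and 30 of the genes lay below the WT mean and 23 and 22 below every WT library, whereas in LC3b-/- M 15 lay below the WT mean and 6 below every WT library. The median coefficient of variation between mice was 13.0% in WT and 17.9% in LC3b-/-, and it was larger in LC3b-/- for 31 genes. In WT the male library M1 was highest for 22 genes and F2 lowest for 24. These counts by library were not made over all genes tested, so they are not shown to be particular to the 42 genes. LC3b-/- M was the only male of its group and had another number before the sex letter in its name than LC3b-/- F1 and F3. Sex, this number and the single mouse therefore cannot be told apart. RPE marker sums were also highest in M among the LC3b-/- libraries, 16608 CPM in F1, 19402 in F3 and 32512 in M, and in WT they were lowest in F2 and highest in M1. Their part in the result was not tested. Without LC3b-/- M, *Acp5* and *Idua* were called with edgeR (adjusted p = 0.0477 and 0.0483), when 485 of all 17553 genes tested in that fit were called. In the same fit 18 of the 42 genes had an unadjusted p under 0.05 with a lower mean (42.9%, against 13.1% of all genes tested). These 18 added *Psap*, *Gaa*, *Ctsa*, *Hexa*, *Glb1*, *Gla*, *Aga*, *Neu1*, *Arsb*, *Sgsh* and *Acp2* to the 7 found with all libraries. Without LC3b-/- F1 that count was 3 (7.14%, against 5.74% of all genes tested in that fit), and 5 genes had a higher mean at that p (11.9%, against 8.09%).

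The summed CPM of the 39 genes without *Ctsd*, *Psap* and *Ctsb* was 3448, 3171, 3502 and 3757 in WT and 2992, 2961 and 3787 in LC3b-/-. The female LC3b-/- libraries were lowest and LC3b-/- M was highest of all 7. By class, the cysteine cathepsins summed to 1912 to 2172 CPM in WT and 2060 to 2612 in LC3b-/-, the glycosidases to 887 to 1093 and 765 to 1051, the sulfatases to 226 to 299.7 and 184 to 257, and the lipid hydrolases to 511 to 630.4 and 425 to 545 CPM. All 4 class sums overlapped between the groups.

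*Ctss*, *Ctsk*, *Ctsh* and *Acp5* are abundant in macrophages or osteoclasts, and marker lists of such cells are given beside them. Of 16 markers of macrophages and microglia 2, *Itgam* and *Cd14*, had an unadjusted p under 0.05, both higher in LC3b-/- (12.5%, against 13.5% of all genes tested), and 0 lower. Their summed level was 443 to 656 CPM in WT and 478 to 707 CPM in LC3b-/-, no marker was at 0 in any library, and *C1qa*, *C1qb*, *C1qc*, *Aif1*, *Trem2*, *Cx3cr1* and *Csf1r* had a lower mean in LC3b-/-. The sum was lowest in WT F3, as was *Ctss*, and highest in LC3b-/- M, where *Ctss* and *Ctsk* were highest too. Within LC3b-/- the sum was 478 CPM in F1, 569 in F3 and 707 in M, and *Ctss* and *Ctsk* rose in the same order. In WT F3, F2 and F1 it was 443, 564 and 644 CPM, again in the order of both genes. WT M1 did not follow, with the highest WT sum of 656 CPM, *Ctss* at 89.0 CPM and *Ctsk* at 12.9 CPM. Between the groups the order did not hold throughout. LC3b-/- F1 at 478 CPM had *Ctss* at 109 CPM, and WT F2 at 564 CPM had it at 99.8 CPM. Of 5 osteoclast-like markers 3 had enough counts to be tested. Of these 1 (33.3%, against 13.5% of all genes tested), the V-ATPase subunit *Atp6v0d2*, had an unadjusted p under 0.05, with a log2 fold change of 2.26. The 5 summed to 3.15 to 6.35 CPM in WT and 13.0 to 23.5 CPM in LC3b-/-, most of it *Atp6v0d2*, whereas *Calcr* was at 0 in WT F2, F3 and M1 and in LC3b-/- F1, and *Oscar* at 0 in LC3b-/- F1. *Ctsh* and *Ctsc* were highest in LC3b-/- F1, and so was the sum of ocular surface epithelium markers, at 22678 CPM. In LC3b-/- F3 and M that sum was 5773 and 3301 CPM, and *Ctsh* and *Ctsc* fell in the same order. In WT F3 and M1 it was 9.77 and 2427 CPM, with *Ctsh* at 38.6 and 39.7 CPM and *Ctsc* at 85.3 and 95.3 CPM. In WT F1 and F2 it was 842 and 606 CPM, with *Ctsh* higher and *Ctsc* lower than in WT F3 and M1. Markers of endothelium summed to 226 to 727 CPM in WT and 892 to 974 CPM in LC3b-/-, and those of fibroblasts to 680.1 to 1819 and 1304 to 2135 CPM. The part of these cells in the values of the 4 genes was not tested.

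**Figure D5:**
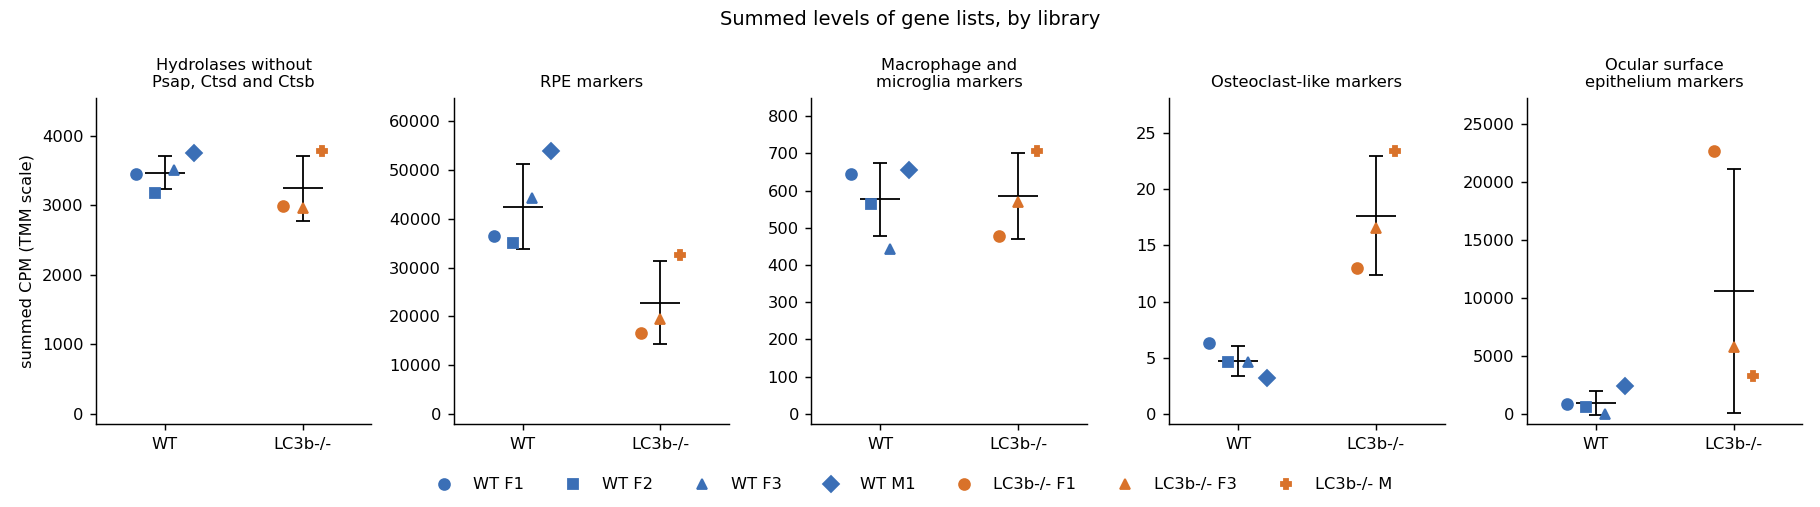
Summed CPM in each library of the 39 hydrolases and activators without *Psap*, *Ctsd* and *Ctsb* and of 4 marker lists, with the mean and SD of 4 WT (blue) and 3 LC3b-/- mice (orange). The groups overlap for the hydrolases and for the macrophage and microglia markers (443 to 656 and 478 to 707 CPM) and not for the RPE, osteoclast-like and ocular surface epithelium markers.

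Genes that work with these enzymes were counted in 4 further lists, and none of their genes was called with edgeR. Of 25 other lysosomal hydrolases tested 1 had an unadjusted p under 0.05 with a higher mean (4.00%, against 13.5% of all genes tested) and 3 with a lower mean (12.0%, against 10.6%), among the latter the amidase *Naaa* (log2 fold change -0.40) and the dipeptidyl peptidase *Dpp7* (-0.27). Of 14 genes of sorting and processing 1 had an unadjusted p under 0.05 with a higher mean (7.14%) and 2 with a lower mean (14.3%). *Igf2r*, the cation-independent mannose 6-phosphate receptor, had 52.7 to 65.3 CPM in WT and 72.3 to 94.8 CPM in LC3b-/- without overlap (log2 fold change 0.50, edgeR adjusted p = 0.101). In the same list sortilin (*Sort1*), which carries the saposin precursor to lysosomes, and *Gnptg*, a subunit of the enzyme that adds the mannose 6-phosphate tag, had log2 fold changes of -0.36 and -0.39 with an unadjusted p under 0.05.

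Of 6 genes tested from the list of cathepsin inhibitors 2 had an unadjusted p under 0.05, both with a higher mean in LC3b-/- (33.3%, against 13.5% of all genes tested), and only *Cstb* of these is a cystatin. Nearly all CPM of the list belonged to the secreted inhibitor cystatin C (*Cst3*), named after its values were seen, which had 5088, 5425, 5638 and 7369 CPM in WT and 3341, 3307 and 5283 CPM in LC3b-/-. Only LC3b-/- M lay within the WT range (log2 fold change of -0.56, standard error 0.278, edgeR adjusted p = 0.258). Cystatin B (*Cstb*), an intracellular inhibitor of cysteine cathepsins, had 38.9 to 54.8 CPM in WT and 64.6 to 104 CPM in LC3b-/- (log2 fold change of 0.85, edgeR adjusted p = 0.0951), highest in LC3b-/- F1 as were *Ctsh* and *Ctsc*. The other gene, *Spink5*, a serine protease inhibitor of stratified epithelia, had at most 1.08 CPM in WT and 3.86 to 27.9 CPM in LC3b-/-, in which F1, the library with the most ocular surface epithelium markers, was highest. Of the transcription factors that bind the promoter element above, *Mitf*, *Tfe3* and *Tfeb* had log2 fold changes of -0.32, 0.13 and 0.10 (standard errors 0.258, 0.126 and 0.112), each with overlapping groups, and *Tfec* had too few counts to be tested. The 27 genes with a window and an unadjusted p of 0.05 or more included 10 with the core CACGTG (37.0%).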

How the data were processed

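RNA of 7 RPE samples was sequenced as stranded polyadenylated libraries. The authors quantified reads with salmon against the GENCODE vM26 transcripts of GRCm39, per the labels and methods, and collapsed them to gene level using tximeta; what they deposited are estimated counts per gene, already whole numbers and not scaled for depth (0 columns unused). Trimming, salmon options and rounding are not given in the sources used here. Identifiers were named with GENCODE vM39 (51721 of 52740 matched; the others hold at most 0.0436% of a library).

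Differential expression used edgeR 4.0.16 in R 4.3.3, with its filterByExpr, TMM scaling and the quasi-likelihood test of all 7 libraries without covariates, with Benjamini-Hochberg adjustment over 16990 genes. The biological coefficient of variation was 0.398, and the 42 genes had at least 172 counts in every library. The edgeR standard error is the absolute log2 fold change, fitted without a prior count, divided by the square root of F. P-values measure the spread between mice. Alternatives were DESeq2 1.42.0, limma 3.58.1 voom, other scalings, filters, covariates and samples, a replicate block, and counts summed with near-identical copies (BLAST 2.17.0, at least 95% identity over 100 bases). The count tests were tested on simulated data with fold changes larger than those of the 42 genes. Whether changes as small as theirs would be found was not tested. Promoter letters were read with Python 3.11.15 and figures drawn with matplotlib 3.10.9.

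The 42 genes, the further lists and the markers were chosen with earlier results of these data known, and no test of a list was made. Values in every library, with fold change, standard error and adjusted p, were given for genes with an unadjusted p under 0.05 and for the 6 with the highest length-scaled WT level; the others are given by ranges or fold changes. Of the 4 further lists, genes with an unadjusted p under 0.05 were named, at most 6 a list, except 2 genes that are not reported here; *Psap* divided by *Ctsd* and other genes named beside results were chosen after their values were seen.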

Additional observations from a re-analysis of the deposited data

Results flagged for a closer look

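In 2 of the 42 genes 1 WT library lay far from the other 3 by Dixon's criterion for 4 values, where chance gives about 1 in 20 groups, and both were WT M1. *Ctsa* had 218 CPM in WT M1 and 180.4 to 185 CPM in the other WT libraries. *Hexa* had 189.6 CPM in WT M1 and 172 CPM in each of the others. Neither gene had an unadjusted p under 0.05 in the comparison with LC3b-/-.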

How the results depend on the processing

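With 17 alternatives, 261 of 272 single fold changes of 16 genes kept their direction and their side of the threshold, 8 passed it and 3 reversed, all of *Ctsb* (-0.064 in females only, -0.087 with the replicate block, and between -0.12 and 0.14 when 1 library was left out, the lowest without LC3b-/- M). The count of called genes among the 42 was 0 with edgeR, 5 with DESeq2's Wald test and 1 (*Acp5*) with limma's voom, and it ran from 0 to 2 when 1 library was left out, 2 without LC3b-/- M. The count with an unadjusted p under 0.05 was 11 and ran from 8 to 21 when 1 library was left out, lowest without LC3b-/- F1 and F3 and highest without LC3b-/- M. The median log2 fold change ran from -0.24 to -0.08 in the same fits. The causes were not tested. Over all genes the 40 calls became 1831 with DESeq2, 124 with voom, 78 without a filter, 197 with sex as a covariate, 96 in females only, 0 with the replicate block, and 11 to 485 when 1 library was left out. F1 and F3 name mice in both groups, but only 2 numbers are shared and nothing says that they pair the mice. Deviations of same-numbered libraries correlated at 0.146 and 0.243, and of these 4 libraries only WT F1 correlated best with its own number. With the replicate block 0 of the 42 genes were called, 11 had an unadjusted p under 0.05, and the median log2 fold change was -0.26. WT F2, WT M1 and LC3b-/- M share their block with no other library, so the fold changes of that fit rest on F1 and F3 alone.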
